A study of Mus musculus with 2 samples.

Results

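The B7-CD28 family and its close partners were described across 9 genes of 55536 annotated genes: Cd28, Ctla4 and Icos, Icosl, Cd80 and Cd86, Cd40, and Cd274 and Pdcd1lg2. Members were taken by gene symbol. Cd28 was chosen by its high measured TPM in these libraries and the others as its partners, so the level of Cd28 is a description with no test attached. RNA came from the nuclear fraction, named nucleoplasmic in the sample descriptions, of primary macrophages grown from the bone marrow of C57BL/6J mice. The cells had been exposed for 30 min to 100 ng/ml of Lipid A, the membrane anchor of bacterial lipopolysaccharide. Ribosomal RNA was depleted and the total RNA was sequenced. There was 1 group with 2 libraries, labelled biological replicates 1 and 2, from a shared donor entry but 2 biosamples. Beyond the word biological nothing states that cells were cultured separately, and the spread between these libraries may thus be technical. Sex and age were not collected. Replicate 1 started from 1 µg of RNA and replicate 2 from 500 ng. Unstimulated cells were not analysed here, so no gene can be called induced or repressed.

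CD28 is best known as a receptor of T cells that delivers the costimulatory signal beside the T cell receptor, while CTLA4 binds the same ligands and restrains the cell. Their ligands CD80 and CD86, the ICOS ligand and the PD-1 ligands PD-L1 (Cd274) and PD-L2 (Pdcd1lg2) sit on antigen-presenting cells such as macrophages. CD40, a TNF receptor family member on the same cells, receives the CD40 ligand of T cells and signals through TRAF adaptors and NF-kB.

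Annotated genes held 15846221 expected counts in replicate 1 and 14874869 in replicate 2. A count of 0 allows up to 3 counts in a library, and such limits and the intervals below cover counting error only. Levels are in TPM, which divides by transcript length and is a share over all RNA classes. Protein-coding genes together summed to 300859 and 266303 TPM. Replicate 2 had the lower TPM in general: over the 10448 genes with a mean of at least 50 counts, its log2 ratio to replicate 1 had a median of -0.44, whereas TMM-scaled counts gave -0.03. The share of counts on mitochondrially encoded genes was 2.18% in replicate 1 and 6.14% in replicate 2. All 8 macrophage markers were detected and most markers of other cells were near 0, as given further on.

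Of the 9 genes, 6 were detected, meaning 1 TPM or more in each library, against 20.7% of all annotated genes and 42.4% of protein-coding genes. Cd28 was chosen by its high level, so its detection was given by that choice and carries no weight in this count. The ligand genes on the antigen-presenting side were detected except Pdcd1lg2. Of the 3 receptors classed with T cells, Ctla4 and Icos were not detected, beside Cd28, which was chosen by level. Mean levels ran from 151 TPM for Cd274 over 94.0 for Cd28, 48.5 for Cd40, 37.4 for Cd86, 26.1 for Icosl and 17.2 for Cd80 to 0.17 for Icos, 0.095 for Pdcd1lg2 and 0.015 for Ctla4. Cd274 stood above Cd28 without overlap of their libraries. From Cd28 down to Cd80 the range of each neighbour in the order overlapped the next. Within a library, Cd86 exceeded Icosl by 4.84 and 17.7 TPM, while the other 3 neighbouring pairs changed order between the libraries. Cd28 did not overlap Cd86, Icosl or Cd80. A gap without overlap separated Cd80 from Icos. Among 22028 protein-coding genes ranked by mean TPM, Cd274 was at place 238 and Cd28 at 427, and Cd40, Cd86, Icosl and Cd80 followed at 928, 1295, 1906 and 2840. Detected protein-coding genes had a median of 8.61 TPM, below all 6 detected members. In bulk RNA such as this, fewer cells that express a gene and less RNA per cell cannot be told apart.

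**Figure D1:**
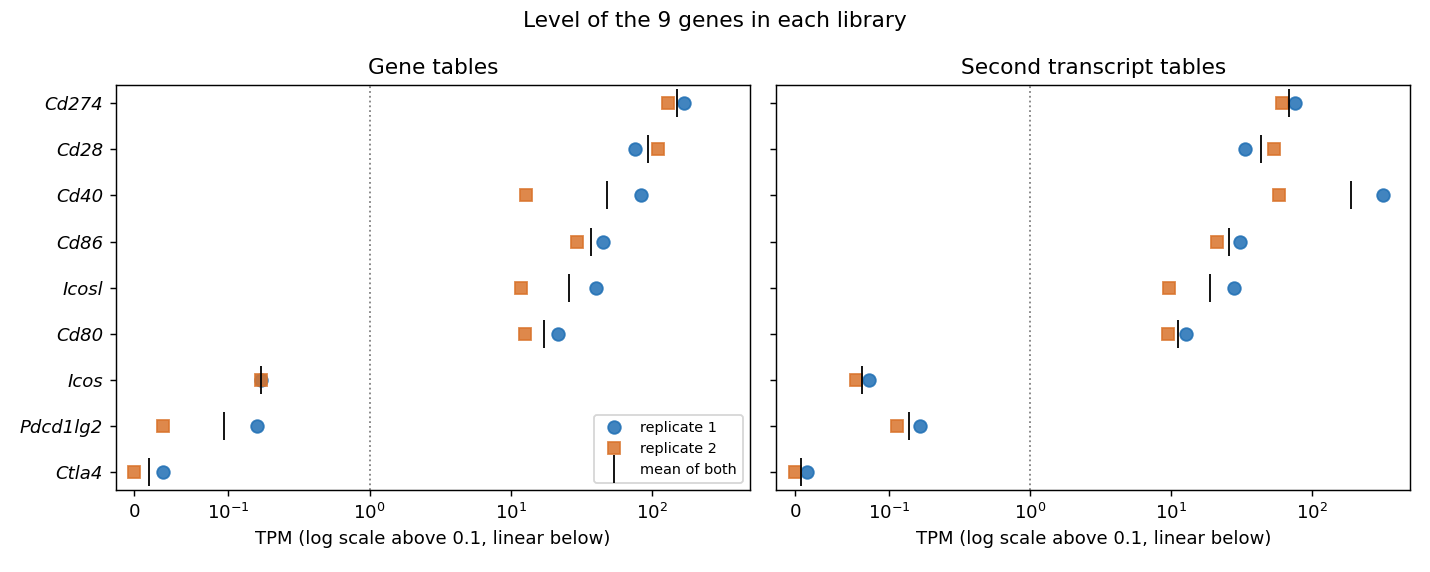
Level of each of the 9 genes in TPM (horizontal axis, log scale above 0.1 and linear below) in the gene tables (left) and the second transcript tables (right); circles are replicate 1, squares replicate 2, vertical ticks the mean, and the dotted line marks 1 TPM. The 6 detected genes lie to the right of the line and Icos, Pdcd1lg2 and Ctla4 to its left in both kinds of table, and Cd40 is the gene whose place changes most between them.

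Cd28 (ENSMUSG00000026012.2, mm10 chr1:60716800-60773359, plus strand) had 5106 reads in replicate 1 and 9219 in replicate 2. Its level was 76.9 and 111 TPM, or 94.0 ± 24.2 (SD, n = 2), and it was the only detected member with the higher TPM in replicate 2. After TMM scaling the libraries differed 1.89-fold, a log2 ratio of 0.92, just short of the 2-fold limit used here. No 31-base stretch of its annotated transcripts occurs in a transcript of another gene, and no other annotated gene overlaps its span. Reads of Cd28 can therefore not be shared with a copy or with an antisense gene among the annotated transcripts.

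Among the annotated transcripts, the reads counted for Cd28 were placed almost entirely on the coding transcript. Intron bases outside these transcripts were not counted, and reads within exons do not show whether the RNA was spliced. Cd28-201, with 4 exons, 4347 bases and a coding length of 654 bases, took 90.8% and 93.6% of the gene's TPM. The retained-intron transcript Cd28-203 took 9.21% and 6.38%, and Cd28-202, without coding sequence, had 0 counts in both. By counts the retained-intron transcript held 3.67% (95% Wilson interval 3.18 to 4.21) in replicate 1 and 2.52% (2.22 to 2.86) in replicate 2, intervals that do not overlap. Of the 1775 bases of Cd28-203, 1291 lie in intron 2, at chr1:60763336-60764626. The second transcript tables gave Cd28-203 nearly the same share of TPM, 9.71% and 6.14%. The sequences that tell the forms apart are printed in mm10, 5′ to 3′ on the plus strand, from the GENCODE M21 transcripts. The lower-case bases are the end of exon 2, which stops at base 60763335, and the capitals mark what follows it: exon 3 from base 60765277 in the spliced form and intron 2 in the read-through form.
Cd28 spliced: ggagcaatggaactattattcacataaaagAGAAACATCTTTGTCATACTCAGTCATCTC
Cd28 read-through: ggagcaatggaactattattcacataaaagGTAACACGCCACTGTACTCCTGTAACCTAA

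Set against other genes, the retained-intron share of Cd28 was low. Over 4020 protein-coding genes with such a transcript and 5 TPM or more in each library, the median share of TPM was 27.0%, and 12.2% of the genes lay below the 7.80% ± 2.00 (SD, n = 2) of Cd28. The share does not separate a retained intron from RNA not yet spliced. TPM shares give short transcripts more weight than counts do: by counts Cd28 had 3.09% ± 0.812 and the median was 14.3%.

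Ctla4 and Icos, the neighbours of Cd28 on chromosome 1 and its relatives by sequence and function, were near 0. Ctla4 (ENSMUSG00000026011.13, chr1:60887000-60915832), which encodes the inhibitory receptor, had 1 read in replicate 1 and 0 in replicate 2. Icos (ENSMUSG00000026009.14, chr1:60977927-61000320), which encodes the inducible costimulator, had 9 and 11 reads, 0.17 TPM in each library. All reads of Icos were placed on Icos-202, with 5 exons. The second transcript tables gave Ctla4 1 and 0 and Icos 11 and 13 estimated counts. The start of Ctla4 lies 114 kb beyond the end of Cd28, and Icos lies 62.1 kb further, all on the plus strand. On the other side Raph1, which encodes a regulator of actin at the cell edge, lies 150 kb before Cd28 on the minus strand and stood at 92.4 ± 19.5 TPM (SD, n = 2). Along this stretch, Raph1 and Cd28 were thus at like levels and the next 2 protein-coding genes were under 1 TPM. The gene Gm37039, of unconfirmed coding potential, lies inside Icos on the same strand, shares no exon base with it, and had 1 read in each gene table. In the second transcript tables it had 134 and 232 estimated counts.

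**Figure D2:**
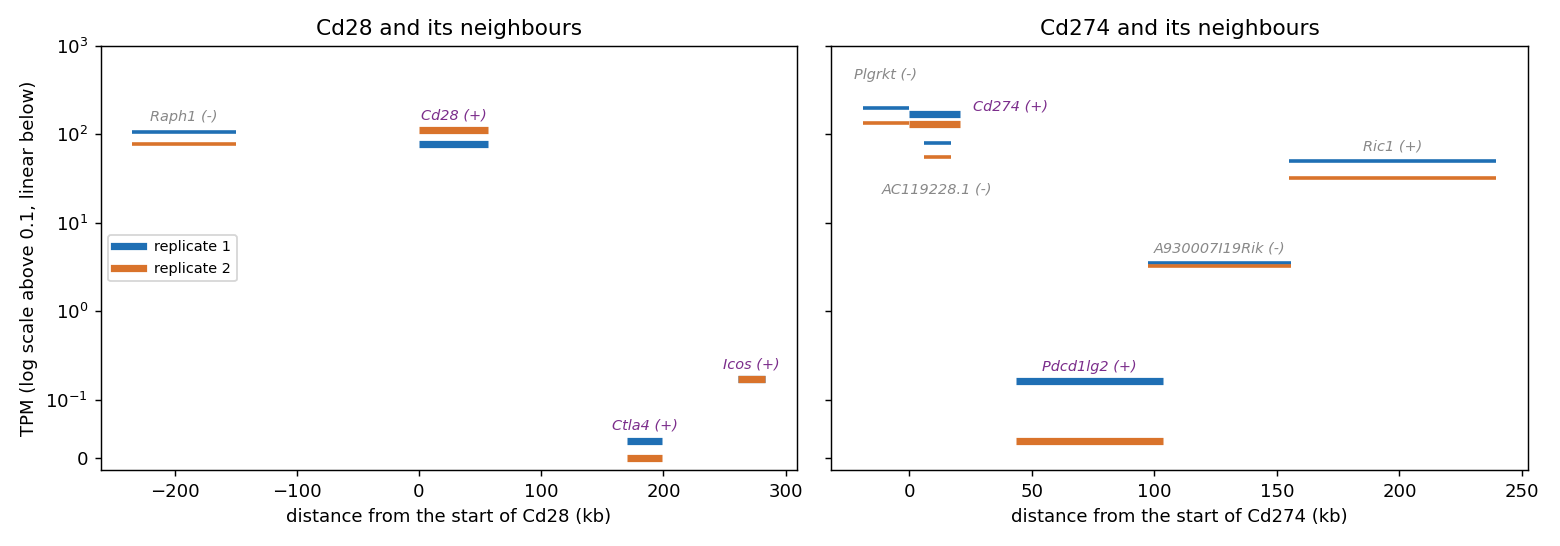
TPM (vertical axis, log scale above 0.1 and linear below) against distance in kb from the start of Cd28 (left) and of Cd274 (right); each gene is drawn to scale as a line in the colour of its library, thick for the described genes and thin for neighbours, with the strand in brackets. Ctla4 and Icos lie under 1 TPM beside Cd28, and Pdcd1lg2 lies under 1 TPM between Cd274 and Ric1.

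Among the ligands of CD28 and CTLA4, Cd86 (ENSMUSG00000022901.13, chr16:36603869-36666081, minus strand) had 983 and 867 reads. Its level was 45.2 and 29.6 TPM, 37.4 ± 11.1 (SD, n = 2). Cd80 (ENSMUSG00000075122.5, chr16:38455561-38496335, plus strand) had 730 and 648 reads and a level of 21.7 and 12.8 TPM, 17.2 ± 6.32. The log2 ratios of Cd86 and Cd80 from TMM-scaled counts were -0.12 and -0.11, so by counts both were close to even between the libraries. By TPM their log2 ratios were -0.61 and -0.77, against a median of -0.44 over genes with a mean of at least 50 counts. The pair lies on the same chromosome, 1789 kb apart. Cd86 exceeded Cd80 in both libraries without overlap, since its lower value was 29.6 TPM and the higher value of Cd80 was 21.7.

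Both genes spread their reads over several transcripts. The coding transcripts Cd80-201 and Cd80-202, each with a coding length of 918 bases, took 63.1% and 34.9% of TPM in replicate 1. In replicate 2 the order was the other way round, at 36.2% and 63.8%. By counts Cd80-202 held 52.2% (95% Wilson interval 48.6 to 55.8) and 77.8% (74.4 to 80.8), and the second transcript tables had the same order between libraries, at 55.4% and 79.4% of counts. For Cd86 the coding transcript Cd86-201 took 42.2% and 45.1% of TPM but 76.7% and 74.8% of counts. The remainder lay on 3 shorter transcripts without coding sequence, of 548 to 975 bases, of which Cd86-203 took 23.8% and 36.1% of TPM and Cd86-204 took 24.2% and 7.62%. The second tables split these differently, with 4.77% and 0% of TPM on Cd86-204 and 29.6% and 23.1% on Cd86-202, against 9.85% and 11.2% in the first.

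Icosl (ENSMUSG00000000732.9, chr10:78069302-78083913, plus strand), which encodes the ligand of ICOS, had 1534 and 514 reads. Its level was 40.4 and 11.85 TPM, 26.1 ± 20.2 (SD, n = 2), with replicate 2 far below replicate 1. After scaling it was 2.85-fold lower in replicate 2, a log2 ratio of -1.51. Transcripts with a retained intron carried most of the gene. Icosl-204 took 46.5% and 57.4% of TPM and Icosl-202 took 19.6% and 29.1%, together 66.0% and 86.6%. That share, 76.3% ± 14.5, was above 98.3% of the 4020 genes. The coding transcript Icosl-201 had 596 counts in replicate 1 and 66.6 in replicate 2, or 38.9% (95% Wilson interval 36.4 to 41.3) and 13.0% (10.4 to 16.2) of the counts. The second transcript tables gave 535 and 21.9 counts to Icosl-201 and 318 and 244 to a further coding transcript, Icosl-203, which had 5.70 and 11.5 expected counts in the first. Only 58 of the 2784 stretches of 31 bases in Icosl-201 are absent from the other Icosl transcripts, so its split from them rests on few positions. In Icosl-204 the intron part is the 368 bases of intron 3 at chr10:78073339-78073706. The sequences show both ways into exon 4, which begins at base 78073707 and is in lower case; the capitals mark what precedes it, exon 3 in the spliced form and intron 3 in the read-through form.
Icosl spliced: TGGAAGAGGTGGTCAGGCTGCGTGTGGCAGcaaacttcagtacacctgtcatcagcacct
Icosl read-through: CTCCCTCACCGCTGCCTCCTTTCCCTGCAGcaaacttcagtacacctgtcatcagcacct

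Cd40 (ENSMUSG00000017652.16, chr2:165055627-165072948, plus strand) had 2001 reads in replicate 1 and 417 in replicate 2. Its level was 84.3 and 12.8 TPM, 48.5 ± 50.6 (SD, n = 2), so the SD was larger than the mean. After scaling it was 4.59-fold lower in replicate 2, a log2 ratio of -2.20, the widest gap among the 6 detected members. In replicate 1 Cd40 exceeded Cd28, and in replicate 2 it was near Cd80. In the first transcript tables the full coding transcript Cd40-201 took 31.9% and 47.3% of TPM, and 63.5% (95% Wilson interval 61.3 to 65.6) and 84.2% (80.4 to 87.4) of counts. Cd40-202, which lacks exon 7, a stretch of 87 bases at chr2:165069629-165069715, took 27.5% and 5.07% of TPM. By counts that form held 541 in replicate 1 and 18.8 in replicate 2, or 27.1% (25.1 to 29.0) and 4.51% (2.94 to 7.01). Only 29 of its 1566 stretches of 31 bases are absent from the other Cd40 transcripts. The retained-intron transcript Cd40-205, 545 bases long with 131 bases of intron 6, took 30.5% and 33.5% of TPM but 6.94% and 7.29% of counts. Its share of TPM, 32.0% ± 2.20, was above 59.8% of the 4020 genes, but this placement changed with the measure. By counts the share was 7.11%, above 30.8% of the genes. In the second tables it was 21.5% of TPM and 16.6% of counts, above 31.8% and 45.3% of the genes.

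The level of Cd40 depended on the table more than that of any other detected member. In the second transcript tables it stood at 319 and 58.3 TPM, a mean of 189 ± 184 (SD, n = 2), above Cd274 and Cd28 there. The log2 ratio of the second to the gene table was 1.92 and 2.19 for Cd40, against medians of -0.79 and -0.78 over detected genes and 95th percentiles of 0.73 and 0.47. For Cd28 it was -1.21 and -1.04, and for Cd274 -1.17 and -1.10. Short transcripts carried the excess. Cd40-204, 391 bases long, had 0 expected counts in both first tables and 928 and 389 estimated counts in the second, where it took 37.6% and 44.4% of the TPM of the gene. Cd40-201 took 4.69% and 8.04% of TPM there and 32.1% and 45.6% of counts, and Cd40-202 took 3.89% and 0% of TPM. Cd40-206, of 348 bases, had 12.1 and 3.10 against 343 and 132, and Cd40-205 had 139 and 30.4 against 1151 and 260. The difference between the libraries was in the same direction in the second tables, at a log2 ratio of -1.84. The sequences mark the forms named. In the first 3, the lower-case bases are the end of exon 6, which stops at base 165066564, and the capitals mark exon 7, exon 8 or intron 6. In the last, the lower-case bases end exon 1 and the capitals mark the additional exon of Cd40-204 at chr2:165056706-165056819.
Cd40 spliced: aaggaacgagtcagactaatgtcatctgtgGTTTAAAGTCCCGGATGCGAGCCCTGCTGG
Cd40 exon 7 skipped: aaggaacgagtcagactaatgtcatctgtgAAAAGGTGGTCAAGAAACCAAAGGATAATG
Cd40 read-through: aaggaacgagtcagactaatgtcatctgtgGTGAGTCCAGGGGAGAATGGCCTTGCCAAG
Cd40 extra exon: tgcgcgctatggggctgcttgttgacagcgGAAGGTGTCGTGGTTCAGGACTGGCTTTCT

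**Figure D3:**
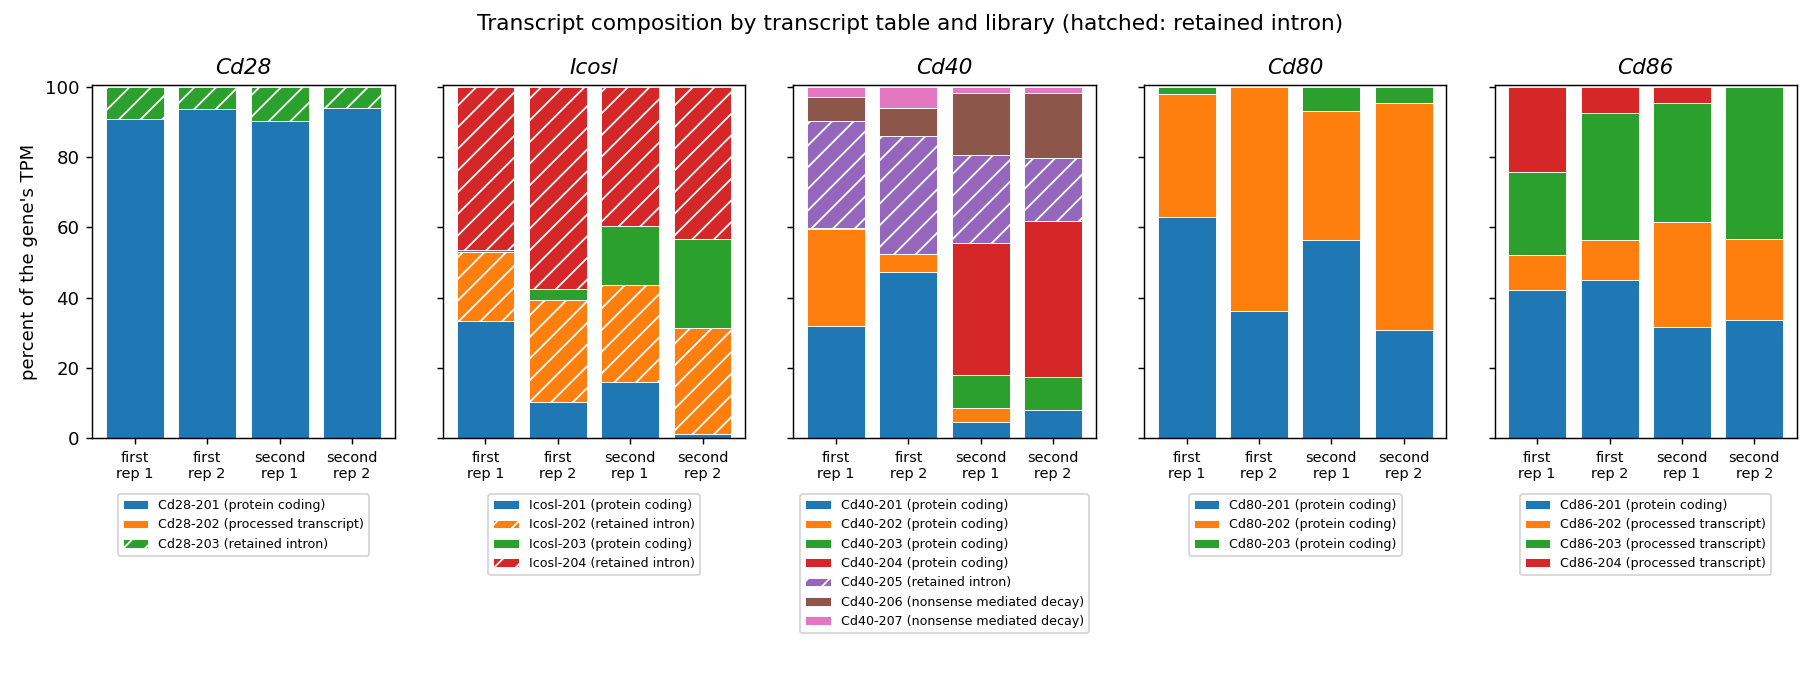
Percent of each gene's TPM (vertical axis) on each annotated transcript, in the first and second transcript tables and in both libraries; hatched parts are retained-intron transcripts. Cd28 is nearly all Cd28-201 in each bar, Icosl is mostly hatched, and in Cd40 the parts of Cd40-201 and Cd40-202 are smaller and those of Cd40-203, Cd40-204 and Cd40-206 larger in the second tables.

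Cd274 (ENSMUSG00000016496.7, chr19:29367455-29388095, plus strand), which encodes PD-L1, was the highest member in the gene tables. It had 9926 and 9388 reads and stood at 171 and 132 TPM, 151 ± 27.7 (SD, n = 2). The scaled log2 ratio was -0.02, the closest to 0 of the 6 members. It has 1 annotated transcript, with 7 exons, 3622 bases and a coding length of 870 bases. The antisense gene AC119228.1 lies within its span and covers 511 of the 3622 exon bases, 14.1%. That gene had 5081 and 4377 reads. The use of strand in counting was not given in the sources used here. Whether reads of this pair were told apart where the exons overlap is therefore unknown, and the level of Cd274 is uncertain to that extent. Of the stretches of 31 bases in Cd274, 14.6% also occur, on either strand, in transcripts of other genes, against 3.52% for Cd40 and under 1% for Cd80, Cd86 and Icosl. Stretches shared with AC119228.1 are included in this, so the 14.1% and the 14.6% count partly the same bases.

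Pdcd1lg2 (ENSMUSG00000016498.10, chr19:29410919-29471161), which encodes the second PD-1 ligand, begins 22.8 kb beyond the end of Cd274 on the same strand. It had 4 reads in replicate 1 and 1 in replicate 2, 0.16 and 0.03 TPM, and 11 estimated counts in each second table. On the other side of Cd274, 0.064 kb before its start on the minus strand, Plgrkt, a plasminogen receptor gene, stood at 167 ± 44.7 TPM (SD, n = 2). Beyond Pdcd1lg2, Ric1, whose product acts in Golgi transport, stood at 40.9 ± 12.6 TPM. Pdcd1lg2 was thus low between detected neighbours on both sides. A930007I19Rik, antisense to the end of Pdcd1lg2, shares no exon base with it and had 108 and 126 reads.

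The promoters of this pair are shown because the genes are adjacent and lay on opposite sides of the detection limit. They are windows of 300 bases around the RefSeq start on GRCm38.p6, at chr19:29367188-29367487 for Cd274 and chr19:29410669-29410968 for Pdcd1lg2, both on the plus strand. Both strands were searched for GGGANNNNCC (an NF-kB element), GAAANNGAAA (an interferon response element), TGANTCA (AP-1) and GAGGAA (PU.1), and capitals mark a match.
Cd274 promoter: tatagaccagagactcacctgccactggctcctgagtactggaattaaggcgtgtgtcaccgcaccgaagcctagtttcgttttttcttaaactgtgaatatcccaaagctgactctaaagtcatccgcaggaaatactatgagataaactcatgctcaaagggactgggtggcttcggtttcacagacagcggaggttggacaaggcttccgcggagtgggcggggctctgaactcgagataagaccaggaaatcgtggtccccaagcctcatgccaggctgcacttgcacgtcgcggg
Pdcd1lg2 promoter: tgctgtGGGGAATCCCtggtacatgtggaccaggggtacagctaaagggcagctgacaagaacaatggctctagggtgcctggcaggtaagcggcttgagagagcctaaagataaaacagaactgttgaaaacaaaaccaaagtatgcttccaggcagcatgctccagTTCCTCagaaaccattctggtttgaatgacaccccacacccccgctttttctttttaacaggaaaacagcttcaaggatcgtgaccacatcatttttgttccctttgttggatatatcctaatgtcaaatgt

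The Pdcd1lg2 window held 1 match to the first motif, GGGGAATCCC, and 1 to the last, TTCCTC, both on the minus strand and not overlapping. The Cd274 window held none of the 4. Of 32851 RefSeq promoters of the same length, 20.7% held GGGANNNNCC, 3.44% GAAANNGAAA, 7.81% TGANTCA and 28.3% GAGGAA. The table held 5 of the 9 members; Ctla4 had no match, Icosl had 1 to GGGANNNNCC, and Cd80 had 1 to GGGANNNNCC and 1 to TGANTCA. These letters are descriptions of the windows and carry no statement on binding.

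Between the libraries, 2 of the 6 members with a mean of at least 50 counts lay beyond 2-fold with bounds that did not overlap, Cd40 and Icosl, both lower in replicate 2. The same held for 8.38% of the 10448 genes at that level, with 3.62% lower and 4.77% higher in replicate 2, and for 7.16% of the protein-coding genes among them. Cd28, 1.89-fold higher in replicate 2, lay close to the limit on the other side. With 2 members of 6, the count is small and compares these libraries only. In the second transcript tables, which give no bounds, Cd28 passed the limit at a log2 ratio of 1.06, and Cd40 and Icosl stood at -1.84 and -1.28. Other values moved with this split: mitochondrial counts were higher in replicate 2, as given above, and the 8 macrophage markers had a median log2 ratio of 0.31, with Lyz2, the lysozyme gene, 2.04-fold higher. Their part in the differences of Cd28, Icosl and Cd40 was not tested, and starting RNA and replicate cannot be told apart.

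**Figure D4:**
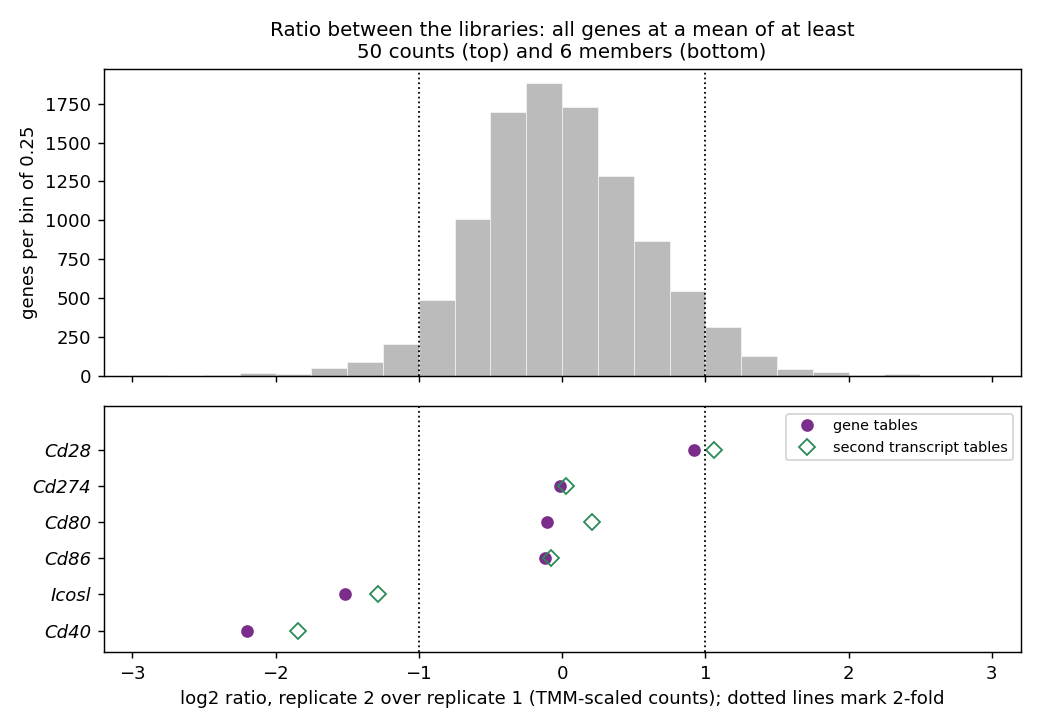
Top: number of genes per bin of 0.25 by log2 ratio of replicate 2 to replicate 1 (horizontal axis, TMM-scaled counts) for all genes with a mean of at least 50 counts. Bottom: the 6 members on the same axis, filled circles from the gene tables and open diamonds from the second transcript tables, with dotted lines at 2-fold; Cd40 and Icosl lie left of the lower line, and Cd28 lies just inside the upper line in the gene tables and just outside it in the second.

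CD40 signalling genes were all detected, 11 of 11, against 42.4% of all protein-coding genes, at a median of 13.5 TPM. The highest were Birc3, a ubiquitin ligase of the TRAF complex, at 129 ± 71.1 TPM (SD, n = 2), and the NF-kB subunit genes Nfkb2 and Relb at 61.8 ± 49.0 and 35.5 ± 25.5 TPM. Traf2, an adaptor, was lowest at 5.19 ± 2.72 TPM. Beyond 2-fold were 4 of the 11, Birc3, Nfkb2, Relb and Traf1, each lower in replicate 2. Over all 10448 genes tested, 8.38% lay beyond 2-fold and 3.62% were lower in replicate 2. Nfkb2 had 4900 and 1729 reads and Traf1 1414 and 540. The list's median log2 ratio was -0.76, against -0.03 for all genes tested. The receptor's ligand gene Cd40lg had 0 reads in both libraries.

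Of 20 genes that signal from CD28 in T cells, 16 were detected, against 42.4% of all protein-coding genes, at a median of 18.0 TPM. Malt1, a protease that acts upstream of NF-kB, stood at 223 ± 138 TPM (SD, n = 2), Pik3r1, the regulatory subunit of PI3-kinase, at 114 ± 76.2 and the kinase gene Tec at 54.7 ± 23.1 TPM. Among kinases best known from T cells, Lck had 3 and 1 reads and Prkcq 12 and 8. Grap2, an adaptor, had 33 and 29 reads. Most of the list was thus detected beside Cd28, with Lck, Prkcq and Grap2 under 1 TPM.

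Of 20 other ligands and counter-receptors of antigen-presenting cells, 8 were detected, near the 42.4% of all protein-coding genes, at a median over the list of 0.87 TPM. Tnfsf9, the ligand of the T cell receptor 4-1BB, stood at 494 ± 115 TPM (SD, n = 2), the adhesion gene Icam1 at 452 ± 323 and the nectin-like gene Pvr at 114 ± 40.7 TPM, so Tnfsf9 and Icam1 were above every described member. Vtcn1, a further B7 family gene, had 0 reads in both libraries, and the B7 family gene Cd276 had 4 and 5. Icam1 alone of 8 tested lay beyond 2-fold, at 2.34-fold lower in replicate 2, against 8.38% of all genes tested. Of 17 further costimulatory and inhibitory receptors of T cells, 7 were detected, again near the 42.4% of protein-coding genes, at a list median of 0.175 TPM. There were 5 detected in the second tables. The highest in the gene tables were Havcr2 (TIM-3) at 5.56 ± 1.86, Cd160 at 2.99 ± 1.27 and Lag3 at 2.49 ± 1.52 TPM, all far below Cd28, and Cd2 had 0 reads in both. The second tables gave another order, led by Tigit at 7.41 and 6.61 TPM, which had 0 and 1 reads in the gene tables, and Cd27 at 5.76 and 3.85 TPM, with Havcr2 at 1.82 and 3.37. Pdcd1, which encodes the receptor of Cd274 and Pdcd1lg2, also had 0 in both. Of 5 tested, Havcr2 lay beyond 2-fold, higher in replicate 2 with 181 and 351 reads, against the same 8.38% of all genes. The median over all annotated genes was 0 TPM in each library.

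T cell markers were examined because Cd28, Ctla4 and Icos are classed with that cell. Of 17, 2 were detected, against 42.4% of all protein-coding genes. The summed level of the 17 was 28.4 TPM in replicate 1 and 37.7 in replicate 2. Most of it was Cd4, the coreceptor gene of helper T cells, with 785 and 1821 reads and 29.4 ± 7.73 TPM (SD, n = 2). Of 2 markers tested, Cd4 lay beyond 2-fold, 2.43-fold higher in replicate 2, against 8.38% of all genes tested. Cd5 had 74 and 61 reads and Cd247 had 9 and 3. Of the 17, 8 had 0 reads in both libraries: Cd3e, Cd3d, Cd3g, Cd8b1, Trac, Trbc1, Trbc2 and Thy1. In the second transcript tables Trbc1 and Trbc2 were also at 0, and Trac had 2 and 1 and Cd3e 1 and 3.74 estimated counts. There, however, Cd3d had 258 and 319, Thy1 223 and 224 and Ubash3a 278 and 271, and 5 of the 17 were detected. Cd28 with 5106 and 9219 reads thus stood beside T cell receptor constant genes at or near 0 in both kinds of table. It also stood beside Cd4, detected in both kinds, and beside Cd3d and Thy1, which had counts in the second tables only.

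Markers of B cells and dendritic cells, the other cells known for CD80, CD86 and CD40, were under 1 TPM in the gene tables, 0 of 7 detected in each list. Their summed levels were 0.96 and 0.70 TPM for B cells and 2.01 and 2.71 TPM for dendritic cells. The highest were Cr2, Cd79b and Fcer2a with 22 and 33, 6 and 2, and 6 and 1 reads, and Siglech, Clec9a and Zbtb46 with 11 and 26, 29 and 16, and 26 and 50 reads. The lowest, Cd79a and Cd209a, had 0 and 0, and 0 and 1. In the second tables Cr2 and Fcer2a passed 1 TPM. All 8 macrophage markers were detected, against 42.4% of all protein-coding genes, with summed levels of 2611 and 3362 TPM. Lyz2 led at 1880 ± 587 TPM (SD, n = 2), followed by Csf1r, the receptor gene for the growth factor CSF1, at 569 ± 41.5 and Cd68 at 189 ± 43.5 TPM. The mean of Cd28, 94.0 TPM, was below these 3 markers.

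**Figure D5:**
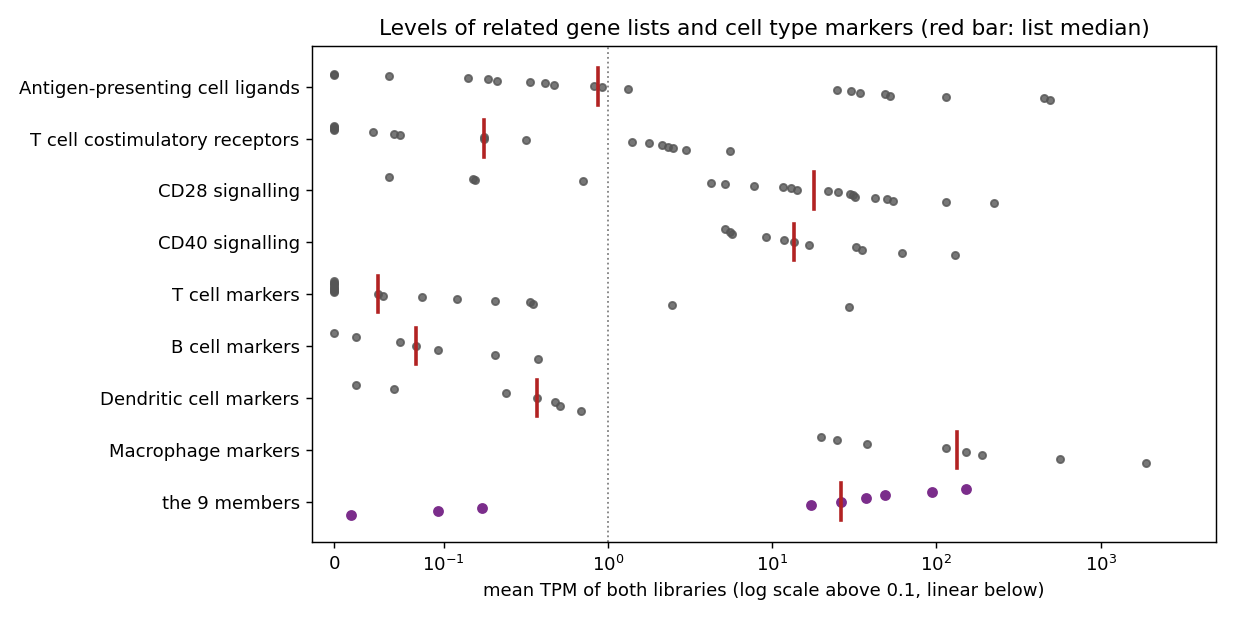
Mean TPM of both libraries (horizontal axis, log scale above 0.1 and linear below) for each gene of 8 lists and for the 9 members; points are genes, spread vertically for legibility, red bars are list medians, and the dotted line marks 1 TPM. The macrophage and CD40 signalling lists lie wholly to the right of the line, B cell and dendritic cell markers wholly to its left, and the members divide 6 to 3.

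The protein-coding genes closest to Cd28 by level in both libraries, by distance over log2(TPM + 1) of 2 values, were Cd93, Akr1a1 and Pfn1. Cd93, a lectin-like receptor gene of myeloid and endothelial cells, stood at 79.6 and 113 TPM with 8781 and 15216 reads. Akr1a1, an aldehyde reductase gene, stood at 73.1 and 102 TPM, and Pfn1, the gene of the actin-binding protein profilin, at 83.6 and 102 TPM. Each was higher in replicate 2, as Cd28 was, which follows from choosing them by these same values. With 2 libraries, likeness of level is all that this measure shows.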

How the data were processed

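Per library, 1 gene table and 2 transcript tables were used, all on the mouse build mm10 and the annotation GENCODE M21, as the deposited text files say. Tools were not given in the sources used here. Deposited gene and first transcript tables hold expected counts and TPM with bounds of unstated level, and the authors' isoform percent, per the file headers; the deposited score column is a posterior mean of TPM. The second deposited transcript tables hold estimated counts and TPM, summed here per gene.

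Expected counts were rounded and TMM factors were taken from edgeR 4.0.16 under R 4.3.3, with library size, DESeq2 1.42.0 size factors and the TPM ratio as alternatives. A gene lay beyond 2-fold at a mean of at least 50 counts, a ratio over 2 either way and bounds that did not overlap, with 0 counts allowed up to 3. The scaling and a like call were tested on simulated counts that held counting error only, with planted changes larger than the limit. Bounds there were computed from the simulated counts. The deposited bounds and the wider spread between real libraries were therefore not tested. With 1 group of 2 libraries no p-value was computed. Retained-intron shares sum transcripts of that class. Of each list, the lowest gene and the 3 highest by mean TPM are named; Lck, Prkcq, Grap2, Traf1, Cd276, Tigit, Cd27, Pdcd1, Cd40lg, Cd3d, Thy1, Ubash3a and the T cell genes at 0 were named after their values were seen, and a few list genes are not reported here. The members and the lists, with 107 entries, were chosen with earlier results of these data known. Promoters are RefSeq's on GRCm38.p6.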

Additional observations from a re-analysis of the deposited data

How the results depend on the processing

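The count of 6 detected members held at TPM limits of 0.5 and 5, in the second transcript tables and in each library alone. Cd28 stood at 43.7 TPM in the second transcript tables and at 336 TPM when TPM was rescaled to protein-coding genes, and at 76.9 to 111 TPM with 1 library left out. Cd28-201 took 96.9% of the gene's expected counts, and 90.8% to 93.6% of TPM with 1 library left out. Cd40 and Icosl lay beyond 2-fold under every scaling and filter tried, DESeq2 factors from genes with a mean of at least 50 counts included, which were added after seeing the data because the standard factors came out at 1 in both libraries. The second tables without bounds added Cd28. The log2 ratio of Cd274 changed sign but stayed near 0, at 0.0109 by library size and 0.0191 by the added factors; by the TPM ratio it was -0.38, where the median of all genes was -0.44. Over all genes 876 lay beyond 2-fold, 498 higher and 378 lower in replicate 2. By the TPM ratio there were 1673, 159 higher and 1514 lower, and by standard DESeq2 factors 858, 392 higher and 466 lower. Without a filter there were 1740, at a mean of at least 10 counts 1477, and 1520 in the second tables. At a limit of 5 TPM, 0 of 17 T cell costimulatory receptors were detected. Counts of 1 to 11 reads, as for Ctla4, Icos and Pdcd1lg2, support no ratio at this depth. No paired analysis was possible because there was 1 group.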
